A study of Mus musculus with 3 samples.

Results

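The genes of the condensin complexes and of the SMC5/6 heterodimer were examined in wild type (WT) mouse embryo fibroblasts (MEFs). The members were the rows of Smc2, Smc4, Ncapd2, Ncapg, Ncaph, Ncapd3, Ncapg2, Ncaph2, Smc5 and Smc6, and all 10 were found among the 21782 genes of the count table. The rule takes them by name and uses no measured value, although earlier results of these data were known when this set of genes was chosen. The samples were 3 clones of MEFs, isolated from E12.5 embryos, carrying the WT genotype, grown asynchronously in medium with 20% FBS and not treated, with 1 polyA-selected RNA library per clone. All libraries were of 1 condition, so no groups were compared. Each clone was 1 library, so that a clone, its culture and its library cannot be told apart, and nothing in the labels says whether the clones came from separate embryos.

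SMC complexes are rings built on a pair of long coiled-coil ATPases of the Structural Maintenance of Chromosomes family, closed by a kleisin subunit. Cohesin, which the study was about, is one of them, and condensin and SMC5/6 are the others of vertebrate cells. Condensin compacts mitotic chromosomes. Condensin I and condensin II share SMC2 and SMC4 and differ in the kleisin (NCAPH or NCAPH2) and in a pair of HEAT-repeat subunits (NCAPD2 and NCAPG, or NCAPD3 and NCAPG2). Condensin II is nuclear through interphase, whereas condensin I reaches the chromosomes after the nuclear envelope breaks down. SMC5/6 acts in DNA repair and replication and carries a SUMO ligase, NSMCE2.

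Libraries held 25261357, 22594316 and 24791198 counts in clones 1, 2 and 3. Levels are given as counts per 1000000 counts (CPM) after scaling of the libraries, and as CPM per kb of transcript wherever genes are set against each other. At this depth 1 count is worth between 0.0396 and 0.0443 CPM, and every member had at least 413 counts in every clone. Of the fibroblast markers, Col1a1 stood at 27713 CPM, while Dcn and Lum were low at 7.73 and 2.03 CPM. All 8 fibroblast markers together came to 53004, 42980 and 41722 CPM, most of it from Col1a1 and Col1a2. The 9 macrophage markers found in the table together came to 360, 1683 and 294 CPM, so clone 2 carried the most of them. The 4 epithelial markers summed to at most 0.673 CPM in a clone. Of the endothelial markers Pecam1, Cdh5 and Tek were under 1 CPM and Kdr averaged 9.49 CPM.

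Genes of late cell cycle phases are commonly repressed in resting cells by the DREAM complex, which binds a cell cycle homology region (CHR), often together with upstream boxes bound by the activator NF-Y. The promoters of the members were read for the letters of these elements. RefSeq windows of 300 bases, from 250 before to 50 after the annotated start, were at hand for 9 of the 10 members. Smc4 had no entry, and of the Ncapd3 windows the one nearest the GENCODE start of the gene was used. The CHR was searched as TTTGAA and TTCGAA, the NF-Y box as CCAAT and an E2F core as GCGGGAA, on both strands. The windows of Smc2, Ncapd2, Ncapg, Ncapg2 and Ncaph2 are printed since they hold the CHR letters of the condensin genes (GRCm38.p6, given 5′ to 3′ on the gene's strand, with each motif match in capitals, where a match on the other strand reads as TTCAAA or ATTGG). No matches overlapped.
Smc2, chr4:52438971-52439270, plus strand: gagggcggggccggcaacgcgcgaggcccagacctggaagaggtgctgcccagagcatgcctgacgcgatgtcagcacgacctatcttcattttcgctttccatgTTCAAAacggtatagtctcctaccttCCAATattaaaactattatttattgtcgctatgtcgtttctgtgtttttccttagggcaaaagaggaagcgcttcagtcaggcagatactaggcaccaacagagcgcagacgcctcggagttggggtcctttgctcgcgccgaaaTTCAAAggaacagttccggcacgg
Ncapd2, chr6:125191537-125191836, minus strand: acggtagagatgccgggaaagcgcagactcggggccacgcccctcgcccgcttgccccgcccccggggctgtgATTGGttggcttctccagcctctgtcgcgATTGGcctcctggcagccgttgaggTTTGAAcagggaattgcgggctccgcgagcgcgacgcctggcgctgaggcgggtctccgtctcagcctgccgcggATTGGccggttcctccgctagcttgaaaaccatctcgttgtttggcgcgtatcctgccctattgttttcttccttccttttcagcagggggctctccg
Ncapg, chr5:45669675-45669974, plus strand: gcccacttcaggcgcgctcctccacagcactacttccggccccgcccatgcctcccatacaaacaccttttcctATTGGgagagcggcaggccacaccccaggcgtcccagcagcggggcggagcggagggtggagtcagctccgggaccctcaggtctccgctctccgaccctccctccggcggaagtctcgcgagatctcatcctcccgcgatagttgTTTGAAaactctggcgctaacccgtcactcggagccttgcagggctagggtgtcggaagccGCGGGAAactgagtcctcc
Ncapg2, chr12:116405186-116405485, plus strand: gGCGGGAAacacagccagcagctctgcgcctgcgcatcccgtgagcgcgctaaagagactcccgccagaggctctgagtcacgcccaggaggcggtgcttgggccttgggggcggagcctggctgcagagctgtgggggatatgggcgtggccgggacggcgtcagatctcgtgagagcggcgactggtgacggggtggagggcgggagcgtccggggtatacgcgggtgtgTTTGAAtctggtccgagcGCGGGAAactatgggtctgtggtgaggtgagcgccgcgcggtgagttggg
Ncaph2, chr15:89355469-89355768, plus strand: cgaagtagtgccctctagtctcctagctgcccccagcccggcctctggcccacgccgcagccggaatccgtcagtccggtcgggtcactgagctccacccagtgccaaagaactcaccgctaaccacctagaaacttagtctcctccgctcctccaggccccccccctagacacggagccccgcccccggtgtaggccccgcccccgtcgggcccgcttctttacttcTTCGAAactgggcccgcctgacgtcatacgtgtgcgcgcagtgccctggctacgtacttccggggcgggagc

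CHR letters in either spelling occurred in 6 of 9 member windows, namely those of Smc2, Ncapd2, Ncapg, Ncapg2, Ncaph2 and Smc6, against 19.2% of all 32817 promoter windows and 13.5% of the windows of genes that reached 10 counts in each clone. Counted from the RefSeq start, with negative positions before it, they began at -30 in Ncapg, -18 in Ncapg2 and -22 in Ncaph2. In Smc2 they began at -145 and 27, in Ncapd2 at -123, and in Smc6 at -199 and -108. CCAAT occurred in Smc2, Ncapd2 and Ncapg, 3 of 9 windows, while 37.4% of all windows held it. Ncapd2 had 3 copies, beginning at -177, -148 and -48. All 3 of these windows also held CHR letters, a combination found in 7.51% of all windows and in 5.52% of those of genes with that many counts. The E2F core occurred in Ncapg and Ncapg2, against 4.60% of all windows and 8.18% of those of genes that reached 10 counts in each clone. The windows used for Ncaph, Ncapd3 and Smc5 held none of these letters. The RefSeq start of Smc5 lies 1298 bases downstream of the start annotated in GENCODE, so its whole window falls inside the annotated gene. Its lack of matches therefore does not describe the sequence at the GENCODE start. The RefSeq start of Ncapd2 lies 115 bases downstream of the GENCODE start. The CHR letters of Ncapd2 at -123 thus lie just before the GENCODE start, and its CCAAT at -48 lies after it. For the other windows used, both starts lie within 34 bases of each other. A further Ncapd3 window, 30241 bases from the GENCODE start and not counted for the members, held TTTGAA at -249. A match of letters is a description and shows no binding.

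**Figure D1:**
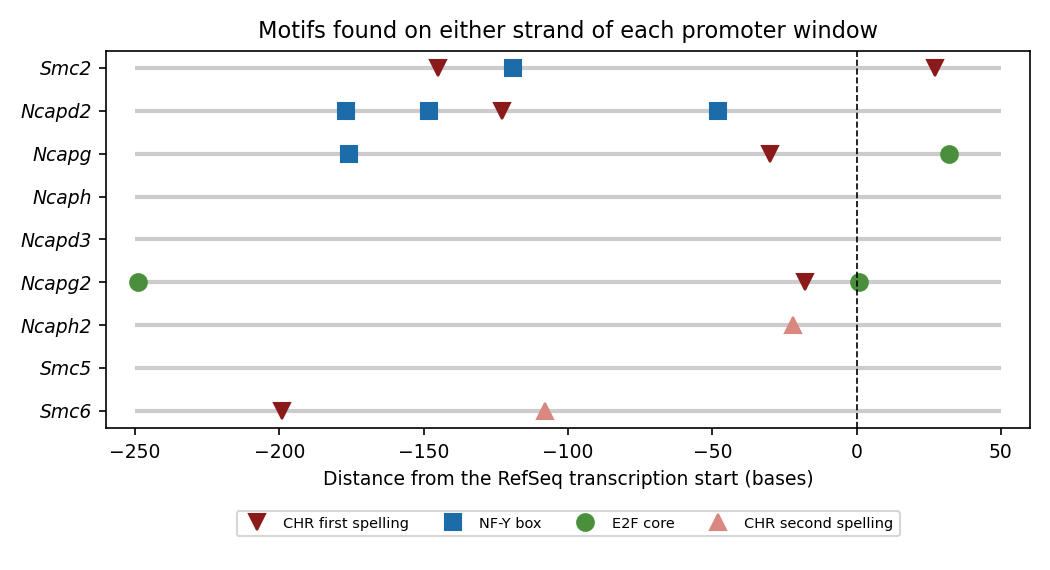
Position of each motif match (bases from the RefSeq transcription start, dashed line) in the promoter windows of 9 member genes, with 1 row per gene and the marker giving the motif. CHR matches of Ncapg, Ncapg2 and Ncaph2 lie within 30 bases before this start, and Ncaph, Ncapd3 and Smc5 have no marker. The RefSeq start of Ncapd2 lies 115 bases downstream of its GENCODE start. That of Smc5 lies 1298 bases downstream, and the Smc5 window lies inside the annotated gene.

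All 10 genes were expressed in every clone, and their levels per kb spanned 6.69-fold from Ncaph2 to Ncapd3. Ncaph2, the kleisin of condensin II, was highest at 28.6 ± 3.74 CPM per kb (SD, n = 3 clones). It was followed by Ncapd2, a HEAT-repeat subunit of condensin I, at 23.1 ± 6.32, and by Smc4 at 18.5 ± 3.89 CPM per kb, and this order was seen in every clone. The lowest were Ncapg2 at 6.64 ± 2.79 and Ncapd3 at 4.28 ± 1.28 CPM per kb, the HEAT-repeat subunits of condensin II.

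Smc2 and Smc4 encode the ATPases common to both condensins. Smc2 lies on chromosome 4 of GRCm38 from 52439243 to 52488260 on the plus strand and has 25 exons. It had 824, 1644 and 1583 counts in clones 1, 2 and 3, or 33.2, 72.9 and 62.7 CPM. Clone 1 was thus far below the others, and clone 2 exceeded it 2.20-fold (95% interval 2.02 to 2.39 from counting error only). Smc4 lies on chromosome 3 from 69004738 to 69034623 on the plus strand, in 24 exons. It had 1509, 1969 and 2317 counts, or 60.7, 87.3 and 91.7 CPM. Clone 1 was again lowest, but clones 2 and 3 were not separated beyond counting error, with a ratio of 0.952 (0.896 to 1.01). The proteins are 1191 and 1286 residues long, and 279 of 1115 aligned residues were identical (25.0%). In bulk RNA of this kind, fewer cycling cells cannot be told apart from less RNA of these genes per cell.

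Among the subunits found in condensin I alone, Ncapd2 (chromosome 6, 125168007 to 125191701, minus strand, 32 exons) had 1862, 2983 and 2874 counts, or 74.9, 132 and 114 CPM in clones 1, 2 and 3. Ncapg (chromosome 5, 45669919 to 45700546, plus strand, 21 exons), the second HEAT-repeat subunit, had 455, 888 and 847 counts, or 18.3, 39.4 and 33.5 CPM. Ncaph (chromosome 2, 127103809 to 127133954, minus strand, 18 exons), the kleisin that bridges the SMC heads, had 473, 830 and 784 counts, or 19.0, 36.8 and 31.0 CPM. All 3 genes ordered the clones in the same way, with clone 1 lowest and clone 2 highest. Clone 2 was above clone 3 by 1.16-fold for Ncapd2, 1.17-fold for Ncapg and 1.19-fold for Ncaph, and each of these intervals excluded equality, the lowest bound being 1.07.

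Of the condensin II subunits, Ncapd3 (chromosome 9, 27030175 to 27095315, plus strand, 36 exons) had 413, 692 and 588 counts, or 16.6, 30.7 and 23.3 CPM. Ncapg2 (chromosome 12, 116405402 to 116463731, plus strand, 29 exons) had 417, 957 and 860 counts, or 16.8, 42.4 and 34.0 CPM. It was the most unequal of the members, 2.53-fold higher in clone 2 than in clone 1 (2.25 to 2.84). Ncaph2 (chromosome 15, 89355719 to 89372826, plus strand, 20 exons) had 2072, 2430 and 2329 counts, or 83.4, 108 and 92.2 CPM. It was the least unequal of the condensin genes, with a ratio of 1.29 (1.22 to 1.37) between clones 2 and 1. Of the 86-nt stretches of its transcript, 15.4% matched transcripts of Gm7535 or Gm8363 within 2 mismatches, and exons of Sco2 and Tymp on the opposite strand covered 19.7% of its exon length. Its count is therefore less certain than those of the other members, none of which shared such a stretch with another gene. Sco2 itself had 209, 152 and 190 counts and Tymp 20, 9 and 13. An opposite-strand gene also covered 13.4% of the exon length of Ncapg, namely Lcorl, with 112, 93 and 114 counts. On the same strand, exons of Gm28967 and Scarna10 covered 3.78% of the exon length of Ncapd2.

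The genes of the SMC5/6 heterodimer also had their lowest level in clone 1. Smc5 (chromosome 19, 23206451 to 23273897, minus strand, 25 exons) had 1318, 1341 and 1357 counts, or 53.0, 59.5 and 53.7 CPM. Clones 1 and 3 were not separated beyond counting error, with a ratio of 1.01 (0.938 to 1.09), and the coefficient of variation over clones was 6.37%. Smc6 (chromosome 12, 11265886 to 11319785, plus strand, 27 exons) had 1136, 1378 and 1544 counts, or 45.7, 61.1 and 61.1 CPM, so that only clone 1 stood apart, and its coefficient of variation was 15.9%. Smc5 had the lowest coefficient of variation of the members. For the condensin genes it was 13.1% for Ncaph2, below that of Smc6, and between 20.98% for Smc4 and 42.1% for Ncapg2 for the others.

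**Figure D2:**
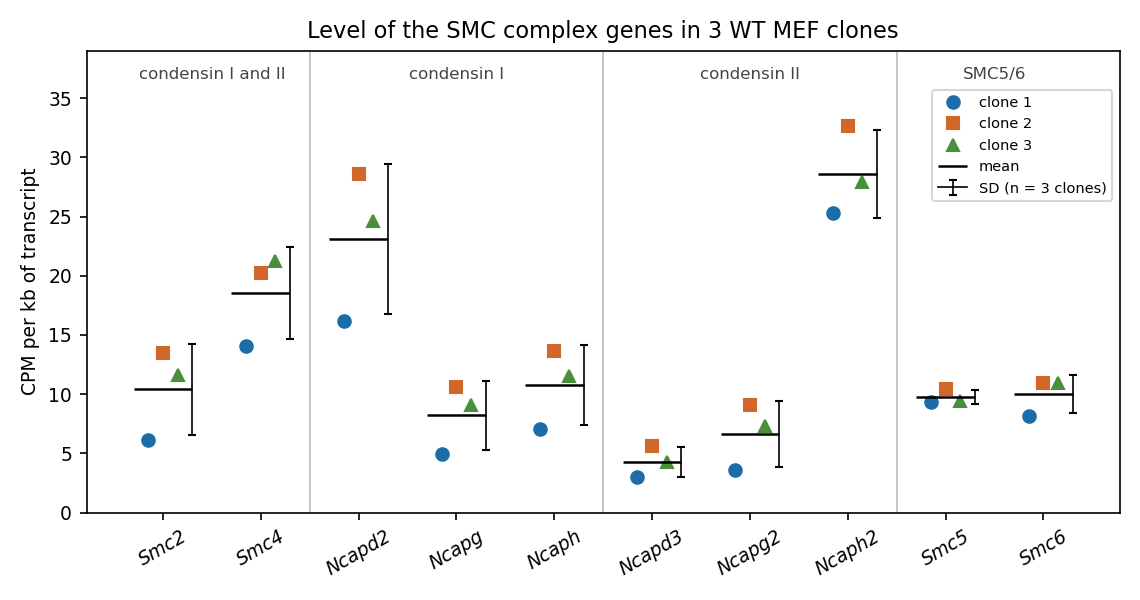
Level of each member in CPM per kb of transcript (linear axis) in clones 1, 2 and 3, with the mean as a line and the SD over 3 clones as a bar, grouped by complex. Clone 1 is the lowest point for every gene, Ncaph2 has the highest mean at 28.6 CPM per kb, and the points of Smc5 lie closest together.

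In the order of levels per kb, the middle of the list was not resolved. Ncaph at 10.7 ± 3.36, Smc2 at 10.4 ± 3.82, Smc6 at 9.99 ± 1.59, Smc5 at 9.75 ± 0.621 and Ncapg at 8.21 ± 2.94 CPM per kb were neighbours in that order, and each was above the next in only 2 of 3 clones. Ncapg was above Ncapg2, and Ncapg2 above Ncapd3, in 3 of 3 clones, although the gaps between their means were smaller than the SD over clones. Smc4 and Ncaph were the only neighbours whose gap exceeded the larger SD.

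Condensin I and II subunits that hold the same place in their complexes were compared as shares of the counts per kb of each pair, which are free of library size. Ncapd2 took 84.3% (95% Wilson interval 82.8 to 85.6) of the Ncapd2 and Ncapd3 signal in clone 1. Its share was 83.7% (82.5 to 84.8) for clone 2 and 85.3% (84.2 to 86.4) for clone 3, and averaged 84.4% ± 0.832 (SD, n = 3). The condensin I gene thus exceeded its counterpart in every clone, by a margin that hardly moved between clones. Ncapg took 58.0% (54.7 to 61.2), 54.0% (51.7 to 56.3) and 55.5% (53.1 to 57.8) of the Ncapg and Ncapg2 signal, with a mean of 55.8% ± 2.02 (SD, n = 3). It was above 50% in every clone per kb, but the share was 49.98% without division by length, so no order of these genes holds under both measures.

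The kleisins went the other way. Ncaph took 21.9% (20.2 to 23.6), 29.5% (27.9 to 31.2) and 29.2% (27.6 to 30.9) of the Ncaph and Ncaph2 signal, a mean of 26.9% ± 4.33 (SD, n = 3). Ncaph2 of condensin II was therefore the higher of the pair in every clone, and the interval of clone 1 did not overlap those of clones 2 and 3. Summed per kb, the 3 condensin I subunits came to 42.1 ± 12.6 and the 3 condensin II subunits to 39.5 ± 7.71 CPM per kb. The order of these sums changed between clones. Condensin I was the lower in clone 1, at 28.2 against 31.9 CPM per kb. It was the higher in clones 2 and 3, at 52.9 against 47.3 and 45.2 against 39.4. Without the kleisins, a comparison chosen after these values were seen, the sums were 31.3 ± 9.26 for condensin I and 10.9 ± 4.05 for condensin II. With 3 clones, an exact two-sided sign-flip test of such a pair cannot give a p below 0.25, and none was run.

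Within the SMC heterodimers, Smc2 took 30.4% (28.6 to 32.2), 40.0% (38.4 to 41.6) and 35.3% (33.9 to 36.8) of the Smc2 and Smc4 signal per kb. Smc4 was the higher in every clone, and the share differed between all 3 clones with no overlap of intervals. Smc5 took 53.4% (51.4 to 55.3), 49.0% (47.1 to 50.8) and 46.4% (44.6 to 48.2) of the Smc5 and Smc6 signal, so that the genes of this pair were close to equal and changed order between clones. This near equality depends on the length used, since annotated exons together cover 12502 bp for Smc6 and 6788 bp for Smc5, and per kb of these the Smc5 share was 64.7% ± 3.19 (SD, n = 3). SMC5 and SMC6 have 1101 and 1097 residues, and 25.7% of aligned residues were identical. Identity was 23.5% between NCAPD2 and NCAPD3, 21.1% between NCAPG and NCAPG2 and 23.7% between NCAPH and NCAPH2.

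**Figure D3:**
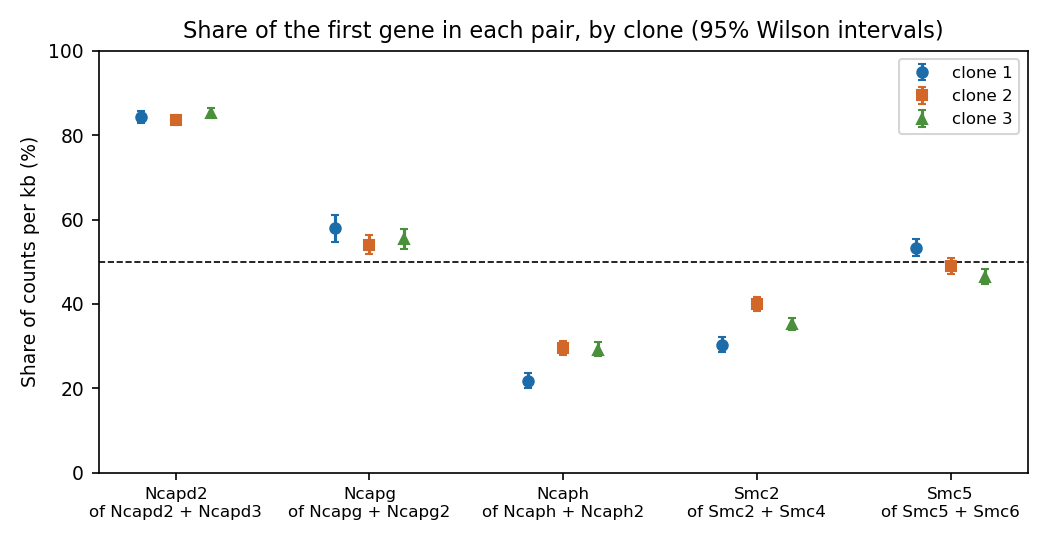
Share of counts per kb taken by the first gene of each pair (percent, 0 to 100) in clones 1, 2 and 3, with 95% Wilson intervals for counting error, and a dashed line at equal shares. Ncapd2 lies near 84.4% and Ncaph near 26.9%, while Smc5 falls on both sides of the line.

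Every member was lowest in clone 1, and 8 of 10 were highest in clone 2, the exceptions being Smc4 and Smc6. Of the 11721 tested genes that averaged 1 CPM or more, 4666 were lowest in clone 1 and 4114 were highest in clone 2. By a Pearson chi-square test, with expected counts in proportion to the scaled libraries, the counts of all 10 members differed between libraries (Benjamini-Hochberg adjusted p under the 0.05 threshold over all genes tested). This test compares libraries and not conditions, and it called 62.5% of the 12218 genes that reached 10 counts in each clone, so that the count of members by itself says little. Of all genes tested, 27.1% were called and lowest in clone 1, against 10 of 10 members. For Smc5, however, clones 1 and 3 were not separated beyond counting error. A difference that also spanned 1.5-fold or more from lowest to highest clone was called for 18.6% of all genes and for 7 of 8 condensin genes, but not for Ncaph2, Smc5 or Smc6. The weakest call was Smc5, with an adjusted p of 0.00993 in the chi-square test. It was lost without clone 2, while Smc4 and Smc6 were lost without clone 1.

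Deviations were taken on the log2(CPM + 1) scale, each from its gene's own average. The median over the 8 condensin genes was -0.50, 0.40 and 0.18 in clones 1, 2 and 3. For Smc5 and Smc6 it was -0.17, 0.12 and 0.05. Over all genes tested it was -0.01, 0.00 and 0.01, and the median range between clones was 0.28, against 0.88 for the condensin genes. Smc5 at 0.16 was below that range of a typical gene, while Smc6 at 0.41 and Ncaph2 at 0.37 were above it. Without clone 1, the condensin median differed by 0.22 between clones 2 and 3, and without clone 2 by 0.64 between clones 1 and 3. Among the condensin genes with CHR letters in the promoter window the ranges were 1.29 for Ncapg2, 1.11 for Smc2, 1.06 for Ncapg, 0.81 for Ncapd2 and 0.37 for Ncaph2. For Ncaph and Ncapd3, where the windows used held none of the motifs, they were 0.92 and 0.85. Smc6, whose window held both CHR spellings, ranged by 0.41. Smc5, whose window lies inside the gene and held none, ranged by 0.16, and Smc4, without a window, by 0.59. Whether the letters go with the range was not tested.

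The partners of condensin on mitotic chromosomes were also lowest in clone 1, in 9 of 9 genes, all of them called by the chi-square test. Their median deviations were -0.57, 0.39 and 0.18. Top2a, the topoisomerase that decatenates sister chromatids, had 2607, 4977 and 4760 counts. Kif4, a chromokinesin, had 581, 1082 and 1147 counts, and Mki67, the coat protein of mitotic chromosomes, had 3270, 5113 and 5042. The mitotic kinase genes Cdk1, Aurkb and Plk1 and the cyclin gene Ccnb1 ranged from 1.93-fold for Cdk1 to 2.62-fold for Aurkb from lowest to highest clone. Akap8 at 1.16-fold and Mcph1, a negative regulator of condensin II, at 1.43-fold varied less.

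Of the 7 other genes listed for the SMC5/6 pathway, 6 were found in the table, 4 of them were called and 3 of those were lowest in clone 1, and their median deviations were -0.10, 0.08 and 0.06. Nsmce1, the RING-finger subunit, had 638, 625 and 652 counts and did not pass the test, nor did Ndnl2, the symbol the table uses for Nsmce3, with 574, 586 and 603. Nsmce2, the SUMO ligase, differed in the other direction, with 463, 328 and 432 counts and its lowest value in clone 2. Nsmce4a, the kleisin, had 458, 563 and 589 counts. Ankrd32 and Fam178a, the older symbols of Slf1 and Slf2, whose products recruit SMC5/6 to damaged DNA, had 177, 270 and 279 and 886, 904 and 1052 counts. Ankrd32 was the only gene of this list called with a range of at least 1.5-fold (1.68-fold).

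**Figure D4:**
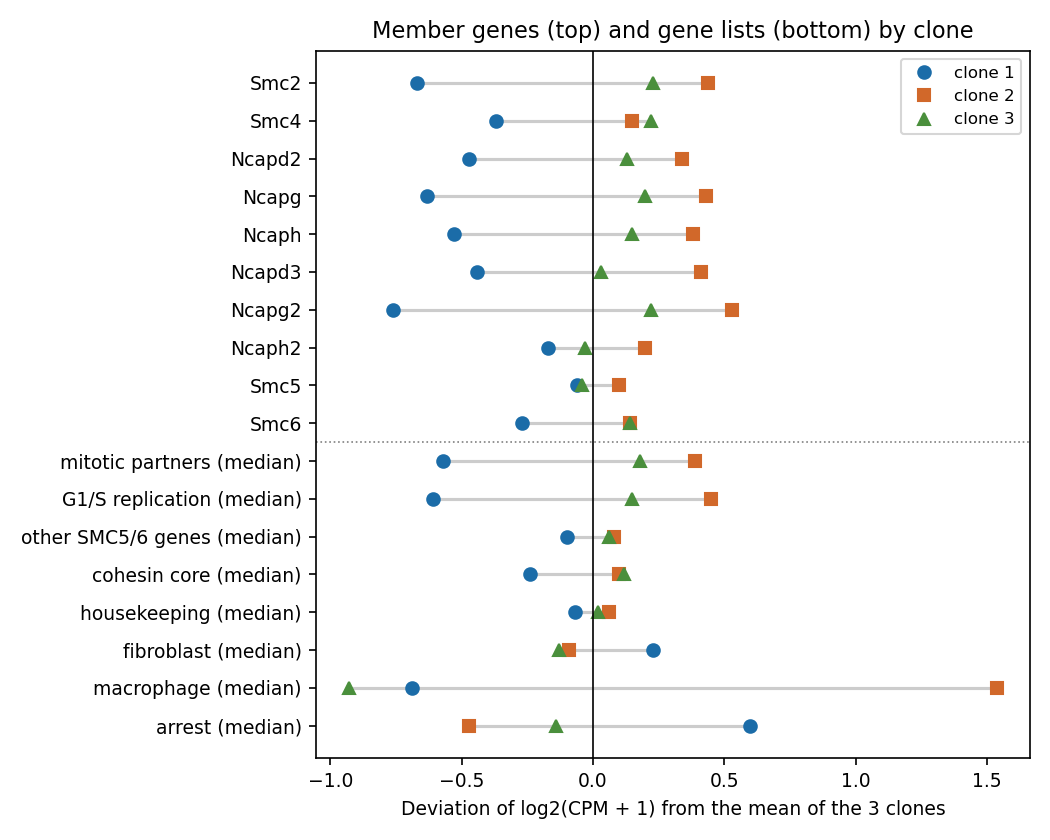
Difference of log2(CPM + 1) in a clone from that gene's average over clones (log2 units) for each member and, below the dotted line, for the medians of other gene lists, with 1 marker per clone. The condensin genes other than Ncaph2 span 0.59 to 1.29, the mitotic partner and G1/S replication lists 0.96 and 1.06, and Smc5, Smc6 and Ncaph2 at most 0.41.

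Other lists also differed between clones, and their part in the condensin result was not tested. The 11 replication genes of the G1/S transition, among them Mcm2 to Mcm7 and Pcna, were called and lowest in clone 1 in 11 of 11 cases, with median deviations of -0.61, 0.45 and 0.15. The arrest genes Cdkn1a, Cdkn2a and Cdkn2b went the opposite way at 0.60, -0.47 and -0.14, and Cdkn2a had 2349, 834 and 1118 counts. The median of the fibroblast markers stood at 0.23, -0.09 and -0.13. Of these 8 genes, 6 were highest in clone 1, while Thy1 at -0.20, 0.43 and -0.23 and Pdgfra at -0.54, 0.61 and -0.06 were highest in clone 2. The macrophage markers stood at -0.69, 1.54 and -0.93, and all 9 were highest in clone 2. Whether macrophage content has a part in the condensin result was not tested. Housekeeping genes varied less, at -0.07, 0.06 and 0.02. The cohesin core genes Smc1a, Smc3 and Rad21 stood at -0.24, 0.10 and 0.12.

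The 5 genes outside the members whose deviations lay nearest to the condensin medians, among 8380 genes averaging 10 CPM or more, were Cdc45, Aspm, Kif20a, Dnmt1 and BC055324. Likeness was the largest absolute difference in any of the 3 clones, which was between 0.03 and 0.04 for these genes, and 86 genes lay within 0.1. Cdc45, a subunit of the replicative helicase, had 285, 496 and 475 counts, and Aspm, a spindle pole protein gene, had 481, 832 and 810. Kif20a, a kinesin of the central spindle, had 1443, 2460 and 2409 counts, and Dnmt1, the maintenance DNA methyltransferase, had 2066, 3550 and 3342. Among the members themselves, Ncaph at 0.03 and Ncapd2 at 0.06 lay nearest to the medians, and Smc5 at 0.44 and Ncaph2 at 0.33 lay farthest. With 3 clones, likeness of this kind rests on 3 values per gene and is a description.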

How the data were processed

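RNA-seq was carried out on polyA-selected RNA of 3 asynchronous clones of WT MEFs. Per the methods of the paper, the authors aligned 86-nt single-end reads with TopHat2 (version 2.0.0, running Bowtie version 0.12.7, with Samtools version 0.1.16), with up to 2 mismatches and 5 multi-hits. HTSeq assigned the alignments to mm10 genes, while the submitters' processing notes name mm9. The HTSeq version, the annotation and the strand setting are not given in the sources used here, so reads of overlapping genes may be lost or misassigned. The table deposited by the authors holds raw read counts, not normalized.

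CPM were computed with TMM factors of edgeR 4.0.16 in R 4.3.3 (0.984, 0.998 and 1.02 in clones 1 to 3). Genes reaching 10 counts in each clone were tested with a Pearson chi-square test (2 degrees of freedom) and Benjamini-Hochberg adjustment over all of them. The procedure was tried on simulated counts with counting error alone. That simulation cannot show how it behaves with the spread between real libraries. Each gene's length is that of its transcript of longest coding sequence in GENCODE M21 (GRCm38), which matched 99.7% of the genes in the table. List medians leave out genes averaging under 1 CPM. Wilson and exact binomial intervals (95%) cover counting error only, since each clone had 1 library and they include no spread between libraries. Reads carry no molecular identifiers, so copies made by PCR were not told apart. Promoter sequences are from RefSeq (GRCm38.p6). Proteins were translated from the transcripts and aligned globally (BLOSUM62) with Biopython 1.88. Python 3.11.15, numpy 2.4.6, pandas 2.3.3 and scipy 1.17.1 were used. Named genes were the members, the 2 pathway lists of SMC5/6 and mitotic partners, genes of other lists where a result turned on them, and the 5 genes nearest in pattern. The members were taken by name, and members, lists and markers were all chosen with earlier results of these data known. Alternatives were DESeq2 1.42.0 size factors, total counts, other count minimums, pseudocounts and lengths, and leaving out each clone. Eid3 and Emr1 of the lists were not analysed here. One marker list is not reported here.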

Additional observations from a re-analysis of the deposited data

How the results depend on the processing

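Of 115 values recomputed under alternatives, 106 stayed within the spread between clones or within 1.5 times of a count. Many of these could not have moved further, so the number by itself says little. Shares are free of library size, and leaving out 1 of 3 clones always shifts a mean level or share by less than the SD. All 10 members stayed lowest in clone 1 with DESeq2 size factors and with total counts, neither of which moved a member's mean level by more than 0.3%. Without division by length, the share of Ncapd2 was 82.0%, that of Ncapg 49.98% and that of Smc2 40.5%, and per kb of all exons the share of Ncapg was 58.4% and that of Smc5 64.7%. Of all genes, 2274 were called when a range of at least 1.5-fold was also required, in place of 7642. Leaving out each clone gave between 3893 and 6531 called genes and between 8 and 10 called members. The span of the condensin median then ran from 0.22 (without clone 1) to 0.88, and that of Smc5 and Smc6 from 0.072 (without clone 1) to 0.29. Each of these leave-out tests compared fewer libraries. They called 53.0% of genes for clones 1 and 2, 45.4% for clones 1 and 3 and 31.7% for clones 2 and 3. The cause of the lower numbers was not tested. No paired analysis was possible because the clones belong to 1 group. Depth did not limit the members, but 3 clones limit every statement on spread, and the lack of strand information limits Ncaph2 and Ncapg.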

Other observations

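The other SMC family genes outside these complexes were Smc1b and Smchd1. Smc1b, the meiotic counterpart of Smc1a, had 0, 0 and 1 counts in clones 1, 2 and 3, under the limit of 3 counts that a count of 0 allows. Smchd1, which encodes a non-canonical SMC protein of the inactive X chromosome, had 1152, 1527 and 1496 counts, or 57.8 ± 10.8 CPM (SD, n = 3), and its deviations on the log2(CPM + 1) scale were -0.29, 0.24 and 0.05. The cohesin genes Smc1a, Smc3 and Rad21 spanned 1.27-fold, 1.31-fold and 1.47-fold from lowest to highest clone, and all 3 were lowest in clone 1.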
